A study of Mus musculus with 8 samples.

Results

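Chemokine receptors are G protein-coupled receptors that steer T cells along gradients of small secreted proteins, and Gpr183, also called Ebi2, does the same along gradients of oxysterols. The genes described are 9: the chemokine receptor genes Ccr4, Ccr6, Ccr7, Ccr8, Ccr9, Cxcr3, Cxcr4 and Cxcr6, together with Gpr183. They were chosen by name, and each was read from the probe sets that the platform annotation assigns to that symbol alone. All 9 had exactly 1 such probe set, among 19938 genes that could be named in this way.

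The arrays measured RNA of mouse CD4 T cells sorted as naive, from mice of wild-type genotype (WT) or from mice with a T cell-specific conditional Bcl6-/- genotype (KO). Culture lasted 24 hours in both groups, with stimulation through CD3 and CD28 by antibodies, antibodies against IL-4, IFNg and TGFb, and the cytokines IL6 and IL21. There were 4 arrays of each genotype, called replicates 1 to 4 of a group after their titles. The labels name neither the driver of the deletion nor the exons removed, nor the age, sex and strain of the mice, and give no mouse for any array. The p-values therefore reflect how far the samples of a group spread, and some of that spread may be technical. The labels call the cells follicular helper T (Tfh) cells, though they were naive cells after 1 short culture.

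Chemokine receptors signal mainly through the inhibitory G protein Gai2 and are switched off by receptor kinases, arrestins and RGS proteins. Naive T cells carry Ccr7, which draws them to the T zone of lymph nodes. Effector, memory and regulatory T cells gain receptors for inflamed and barrier tissues, such as Cxcr3, Ccr4, Ccr6, Ccr8 and Cxcr6, and cells bound for the small intestine carry Ccr9. A Tfh cell lowers Ccr7 and Gpr183 and raises Cxcr5, which leads it into the B cell follicle. Bcl6 is a transcriptional repressor required for that fate, and several receptor genes of this family are described in the literature as repressed by it.

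Before the receptors, the arrays themselves need a description. Bcl6 itself had the higher signal in the KO-labelled group, at 9.15 ± 0.0497 against 8.77 ± 0.123 in the WT-labelled arrays (log2 signal, SD, n = 4 each), with no overlap and a limma adjusted p of 0.0303. The higher signal in the KO-labelled group is unexplained. The labels do not name the exons removed, and which exons the Bcl6 probe set reads was not examined. Whether the genotype labels are right was therefore not tested, and directions below are those of the arrays as labelled. KO replicate 1 stood apart: its deviations from the group mean had a median size of 0.115 (log2), compared with 0.04 to 0.0725 for the remaining KO-labelled arrays, and it correlated more closely with WT replicate 3 than with any array of its own group. Values without it are therefore given for the 6 tested receptors and for some of the other genes. The fit without it called 6.56% of all tested genes at a limma adjusted p under 0.05, against 1.32% with all 8 arrays. With more calls the adjustment is milder, so an adjusted p can fall there although the unadjusted p rises. All 9 T cell markers lay above the expression filter, as did 8 of 9 Tfh markers, with Ascl2 below it in every array. The only Tfh marker called was Cd200, higher by 0.34 on the log2 scale (limma adjusted p = 0.038), where 0.646% of all tested genes were called higher. The 8 tested Tfh markers went both ways, 4 higher (Cd200, Il21, Sh2d1a and Btla) and 4 lower (Cxcr5, Pdcd1, Icos and Tox2). Of the B cell and myeloid markers, Cd79b and Cd68 alone passed the filter, of 7 and 10 on the array.

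The first letters to look at in a Bcl6 experiment are those of its recognition element, TTCCTAGAA, which overlaps the broader element of the Stat factors, TTCNNNGAA. RefSeq promoter windows (GRCm38.p6, the 250 bases before an annotated start) were at hand for 8 of the 9 genes, with a second start for Ccr6. The Bcl6 element, read on both strands, was in none of these 9 windows, and it is rare, since 0.347% of all 32851 windows of this length hold it. The broader Stat element was found in Ccr6 alone, at 2 places in 1 of its windows, against 7.02% of all windows. The AP-1 element TGAGTCA was found in Ccr4 alone, 143 bases before the start (4.46% of all windows), and CACCC, the short core bound by Klf factors, in Ccr4, Ccr8, Ccr9 and Cxcr4 (52.0% of all windows). A match is a description of letters, not a binding site, and the files hold no measurement of binding. The windows below are those of Ccr4, the receptor with the smallest p in the comparison of genotypes; of Ccr8, the receptor with the widest range over arrays; of Gpr183, the receptor with the narrowest; and of Ccr6, which carries the Stat letters. They lie at chr9:114496545-114496794 (minus strand), chr9:120091883-120092132 (plus strand), chr14:121965194-121965443 (minus strand) and chr17:8235793-8236042 (plus strand). Capitals mark matches to any of the 4 elements on either strand, and the Gpr183 window has none.
Ccr4: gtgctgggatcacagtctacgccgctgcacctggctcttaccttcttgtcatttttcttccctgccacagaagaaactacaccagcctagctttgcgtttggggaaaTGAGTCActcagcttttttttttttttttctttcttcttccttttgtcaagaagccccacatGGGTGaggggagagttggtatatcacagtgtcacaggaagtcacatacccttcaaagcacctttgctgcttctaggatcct
Ccr8: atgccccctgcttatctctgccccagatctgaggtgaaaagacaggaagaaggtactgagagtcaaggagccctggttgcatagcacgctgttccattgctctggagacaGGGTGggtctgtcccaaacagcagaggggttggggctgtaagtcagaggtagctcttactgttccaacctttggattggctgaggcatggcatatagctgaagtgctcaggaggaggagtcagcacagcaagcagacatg
Gpr183: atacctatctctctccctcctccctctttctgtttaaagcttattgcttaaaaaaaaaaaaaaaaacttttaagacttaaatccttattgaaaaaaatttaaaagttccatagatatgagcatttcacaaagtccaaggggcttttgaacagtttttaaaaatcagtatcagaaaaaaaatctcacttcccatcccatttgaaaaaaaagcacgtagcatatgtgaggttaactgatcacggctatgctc
Ccr6: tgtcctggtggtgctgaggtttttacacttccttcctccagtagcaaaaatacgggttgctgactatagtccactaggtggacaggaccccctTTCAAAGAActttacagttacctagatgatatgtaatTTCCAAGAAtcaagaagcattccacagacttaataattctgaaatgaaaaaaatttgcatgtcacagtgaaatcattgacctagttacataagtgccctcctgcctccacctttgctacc

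The comparison asks which receptor transcripts differ between activated CD4 T cells labelled WT and KO for Bcl6 under culture conditions that favour Tfh cells. Of the 9 genes, 6 lay above the expression filter (a signal over the 40th percentile of its array, reached on 4 arrays or more) and were tested with all other genes. No receptor passed the threshold of 0.05 on the limma adjusted p, against 1.32% of the 11926 genes tested (0.646% with the KO-labelled mean above and 0.671% with it below). At an unadjusted limma p under 0.05 there were 3 of the 6, namely Ccr4, Ccr7 and Cxcr4, against 16.6% of all tested genes. The groups did not overlap in Ccr4 and Ccr7, both higher in the KO-labelled arrays; 10.8% of tested genes had no overlap in either direction, and 3.10% had none and were higher. The median difference over the 6 was -0.09 on the log2 scale, and the median size of a difference was 0.17, beside -0.02 and 0.07 over all tested genes. With each array centred on its median, the calls over all genes split into 48 higher and 30 lower, beside 77 and 80 as deposited. In a bulk sample, fewer cells that carry a receptor and less of its RNA per cell cannot be told apart.

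**Figure D1:**
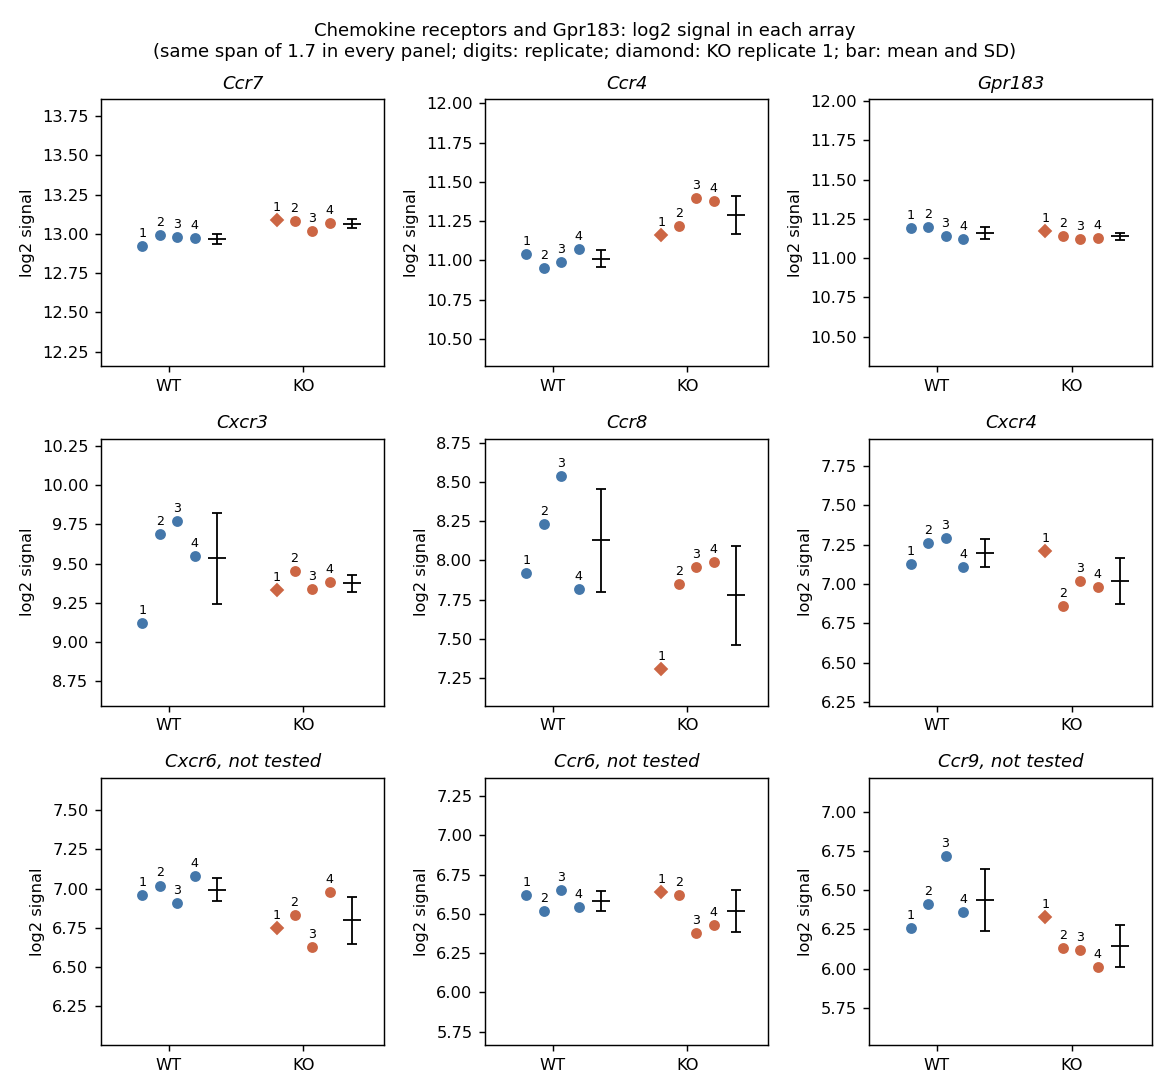
Log2 signal of the 9 genes in each array (points, with the replicate number; the diamond is KO replicate 1), with the mean and SD of the 4 arrays of a group as a bar; every panel spans the same log2 distance. The groups are separate for Ccr7 and Ccr4, Gpr183 stays within 0.08 over all 8 arrays, and Ccr8 spreads over 1.23.

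Ccr7, the receptor for Ccl19 and Ccl21 that holds T cells in the T zone, was slightly higher in the KO-labelled arrays. Log2 signals were 12.92, 12.99, 12.98 and 12.97 in WT replicates 1 to 4 and 13.09, 13.08, 13.02 and 13.07 in KO replicates 1 to 4. Every KO-labelled value lay above every WT-labelled value, although the gap was 1 small step, from 12.99 to 13.02. The difference was 0.10 ± 0.042 on the log2 scale (SE; 95% interval 0.01 to 0.19), or 1.07-fold. It did not pass over all genes (limma adjusted p = 0.267), and the exact permutation test of 4 against 4 gave p = 0.0286, the smallest it can give. KO replicate 1 had the highest value of all 8 arrays here. Without it the difference was 0.09 and the limma adjusted p was 0.187, while the unadjusted limma p rose from 0.0389 to 0.0517.

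Gpr183, the oxysterol receptor that places activated CD4 T cells at the edge between T zone and follicle, was the steadiest of the 9. The WT-labelled arrays read 11.19, 11.20, 11.14 and 11.12, and the KO-labelled arrays 11.17, 11.14, 11.12 and 11.13. The groups overlapped throughout. The log2 difference was -0.02 ± 0.042 (SE), and its 95% interval ran from -0.12 to 0.07, which is 0.923-fold to 1.05-fold of the WT level (limma adjusted p = 0.868, exact permutation p = 0.371). In the 8 fits that left out 1 array the difference lay between -0.04 and -0.01, with -0.03 without KO replicate 1. The enzymes that make and clear its ligand were mostly under the filter: Ch25h and Cyp7b1, which make the oxysterol, and Cyp27a1 lay below it in every array, and Hsd3b7, which clears it, differed by -0.05 ± 0.0648 (SE, limma adjusted p = 0.771), and by -0.09 without KO replicate 1 (0.362).

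Cxcr4, the receptor for Cxcl12 that serves bone marrow homing and positioning inside germinal centres, read lower in most KO-labelled arrays. Its values were 7.13, 7.26, 7.29 and 7.11 in the WT-labelled and 7.21, 6.86, 7.02 and 6.98 in the KO-labelled arrays. The overlap between groups came from KO replicate 1 alone, at 7.21, while the other KO-labelled arrays lay below all WT-labelled values. The difference was -0.18 ± 0.077 over all 8 arrays (SE, limma adjusted p = 0.277, exact permutation p = 0.0857). Without KO replicate 1 it was -0.24 ± 0.0611 and passed (limma adjusted p = 0.0462), in a fit that called 6.56% of all genes, 2.67% as lower. The signal was close to the filter, which it missed in KO replicate 2, so the fold on this scale may understate the change of a weak transcript.

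Ccr4 had the smallest p of the 9. It is the receptor for Ccl17 and Ccl22, carried by Th2 cells, regulatory T cells and skin-homing memory cells. The log2 signal was 11.04, 10.95, 10.99 and 11.07 in the WT-labelled arrays and 11.16, 11.22, 11.40 and 11.38 in the KO-labelled arrays. No KO-labelled array fell to the WT range, and KO replicate 1 was the lowest of its group. The difference was 0.28 ± 0.0635 (SE; 95% interval 0.14 to 0.42), or 1.21-fold, with a limma adjusted p of 0.0689 and an exact permutation p of 0.0286. It ranked 250 by p among the 11926 genes.

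The call for Ccr4 turned on 1 array and on the model of the spread. Without KO replicate 1 the difference was 0.32 ± 0.0556 and passed (limma adjusted p = 0.0131), against 3.88% of all genes called higher in that fit. In the other 7 fits that left out 1 array, the adjusted p lay between 0.0929 and 0.231 and the difference between 0.24 and 0.30. Array weights, an intensity trend with a robust prior, and a second quantile normalization each brought it under the threshold (limma adjusted p = 0.00245, 0.0302 and 0.0312). These fits also called more genes in general: 1980, 354 and 322 of the 11926 tested, against 157 in the main fit. The sign was positive in all 18 alternatives, but most of them could not have changed it. Other filters, the variance model, the mean over its only probe set, the replicate block and the threshold leave the difference as it was. Leaving out or weighting arrays cannot reverse groups that do not overlap. The tested genes most like Ccr4 over the 8 arrays, by the mean absolute difference of values centred on each gene's own mean, were Nemp1 (0.0313), Dnmt3b (0.0341) and Lsm7 (0.035). A higher KO mean in these 3 follows from the choice, since they were picked for values like those of Ccr4 over the same arrays. Their differences were 0.29, 0.23 and 0.25 on the log2 scale, and none passed (the smallest limma adjusted p of the 3 was 0.0848, for Lsm7).

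**Figure D2:**
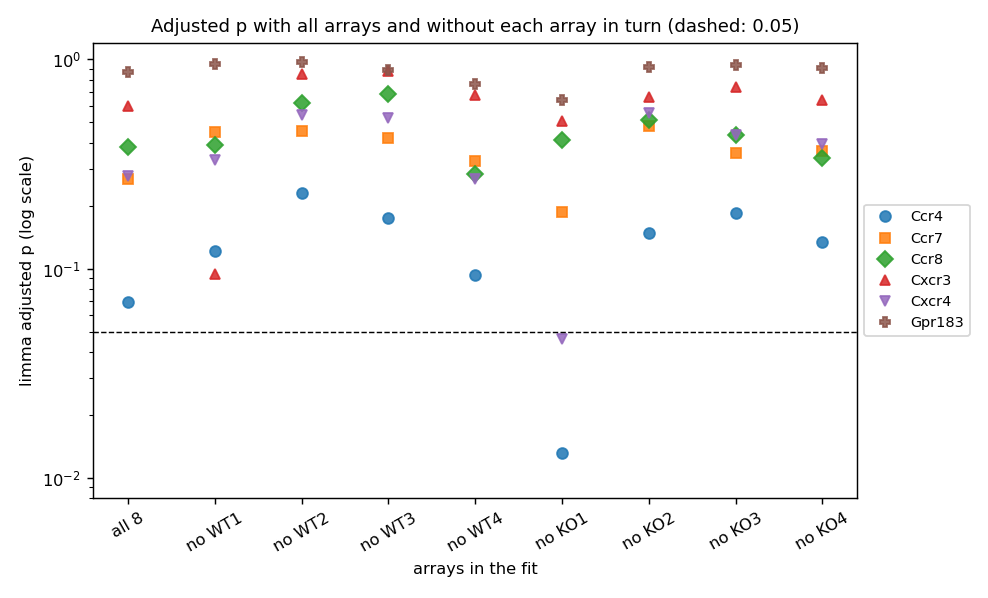
Limma adjusted p (log axis) of the 6 tested receptors with all 8 arrays and without each array in turn; the dashed line is 0.05. Ccr4 and Cxcr4 fall below the line only in the fit without KO replicate 1, at 0.0131 and 0.0462, and the other 4 receptors in none of these fits.

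Ccr8, the receptor for Ccl1 found on regulatory T cells and Th2 cells, varied most between arrays of the same genotype. It read 7.92, 8.23, 8.54 and 7.82 in the WT-labelled arrays and 7.31, 7.85, 7.96 and 7.99 in the KO-labelled arrays. The range was 0.72 within the WT group and 0.68 within the KO group, and the groups overlapped. The difference of -0.35 ± 0.182 (SE; 95% interval -0.76 to 0.06) did not pass (limma adjusted p = 0.379, exact permutation p = 0.257). It shrank to -0.19 without KO replicate 1, the lowest array, and to -0.06 without KO replicate 1 and WT replicate 3 together. The genes most like Ccr8 were Ubxn11 (mean absolute difference 0.116), Lax1 (0.124) and Gadd45g (0.126), by the same measure over 8 arrays.

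Cxcr3, the receptor for Cxcl9, Cxcl10 and Cxcl11 on Th1 cells and other effector cells, differed more among the WT-labelled arrays than between genotypes. The values were 9.12, 9.69, 9.77 and 9.55 in the WT group and 9.33, 9.45, 9.34 and 9.38 in the KO group. WT replicate 1 lay below every KO-labelled array, and the other WT-labelled arrays lay above all of them. The difference was -0.16 ± 0.121 (SE, limma adjusted p = 0.595, exact permutation p = 0.343). Single WT-labelled arrays moved it both ways: it was -0.30 without WT replicate 1 (limma adjusted p = 0.0938), -0.11 without WT replicate 2 (0.847) and -0.08 without WT replicate 3 (0.876). Without KO replicate 1 it was -0.14 (0.507), and the unadjusted limma p rose from 0.223 to 0.300.

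The other 3 receptors were too weak for the test across genes. Cxcr6, the receptor for Cxcl16, read 6.96, 7.02, 6.91 and 7.08 in the WT-labelled arrays and 6.75, 6.83, 6.63 and 6.98 in the KO-labelled arrays, and exceeded the filter in 3 of 8 arrays. Ccr9, the receptor for Ccl25 of gut-homing cells, read 6.26, 6.41, 6.72 and 6.36 against 6.33, 6.13, 6.12 and 6.01, and Ccr6, the receptor for Ccl20 of Th17 cells, 6.62, 6.52, 6.65 and 6.54 against 6.64, 6.62, 6.38 and 6.43. Neither of the latter exceeded the filter in any array, where the filter stood between 6.91 and 7.15. The groups overlapped in all 3, with exact permutation p of 0.0857 for Cxcr6, 0.0571 for Ccr9 and 0.400 for Ccr6. When all 19938 genes were fitted with no filter, the limma adjusted p of Cxcr6, Ccr9 and Ccr6 was 0.393, 0.317 and 0.859. The genes for Ccr4, Ccr8, Ccr9 and Cxcr6 all lie on chromosome 9, and none of the 9 genes lies on chromosome 16, which carries Bcl6.

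Of 16 further chemokine and atypical receptor genes on the array, 5 passed the filter, and no gene was called (1 of 5 at an unadjusted limma p under 0.05, where 16.6% of all tested genes were; median difference -0.13). Cxcr1, an interleukin-8 family receptor best known from neutrophils, had the smallest p of these, at 8.01 ± 0.300 against 7.66 ± 0.134 (SD, n = 4; limma adjusted p = 0.230). Cxcr5, the follicle-homing receptor that defines Tfh cells, was next, at 7.89 ± 0.174 against 7.63 ± 0.263 (limma adjusted p = 0.361). Without KO replicate 1 the difference of Cxcr5 went from -0.26 to -0.14 (limma adjusted p = 0.374). With no filter, Ccr2, a monocyte and memory T cell receptor, was called higher, at 5.61 ± 0.0698 against 6.05 ± 0.0585, though both levels lay under the filter in every array.

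Migration receptors outside the family gave no call either among the 10 tested (median difference 0.02; 1 of 10 at an unadjusted limma p under 0.05, against 16.6% of all tested genes). S1pr1, the receptor for sphingosine 1-phosphate by which T cells leave lymph nodes, read 9.79, 10.27, 10.29 and 10.35 in the WT-labelled and 9.86, 9.84, 9.69 and 9.75 in the KO-labelled arrays. WT replicate 1 fell within the KO range, and the other WT-labelled arrays lay above it. The difference was -0.39 ± 0.112 (SE, limma adjusted p = 0.121), and without WT replicate 1 it was called, as were 0.620% of all genes. Without KO replicate 1 it was -0.42 (limma adjusted p = 0.0654). The unadjusted limma p of S1pr1 was 0.00615 with all 8 arrays and 0.00620 without KO replicate 1. Ptger4, a prostaglandin E2 receptor, had the next smallest p, with a difference of 0.08 ± 0.0551 (SE, limma adjusted p = 0.523).

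**Figure D3:**
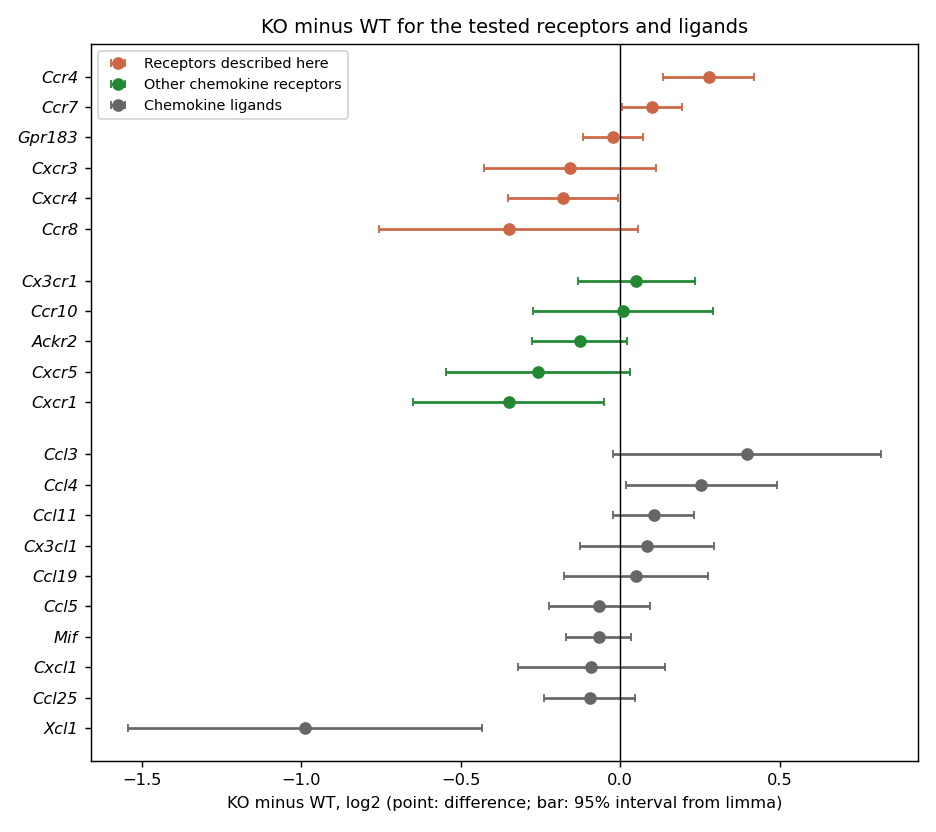
KO minus WT on the log2 scale (points) with 95% intervals from limma (bars) for the 6 tested receptors, 5 other chemokine receptors and 10 chemokine ligands. The intervals of Ccr4, Ccr7, Cxcr4, Cxcr1, Ccl4 and Xcl1 leave out 0, yet none of the 21 genes passed after adjustment over all genes.

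Of the ligands, 35 had a probe set and 10 passed the filter. The ligands of the receptors above were mostly too weak to test: Ccl17, Ccl20, Cxcl9, Cxcl10, Cxcl11, Cxcl12 and Cxcl16, of which none exceeded the filter level in any array, and Ccl22 and Ccl1, which exceeded it in 1 and 2 arrays. Ccl25, the ligand of Ccr9, differed by -0.10 ± 0.064 (SE, limma adjusted p = 0.528), with another of its probe sets at 0.02, and Ccl19, the ligand of Ccr7, by 0.05 ± 0.102 (0.880); the 5 probe sets of Ccl19 come from near-identical copies whose signals cannot be separated with certainty. No ligand was called (2 of 10 at an unadjusted limma p under 0.05, against 16.6% of all tested genes; median difference -0.01).

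Xcl1, lymphotactin, which CD8 T cells and NK cells release to draw dendritic cells, had the largest difference of all the receptors and ligands tested. It read 8.07, 8.85, 8.93 and 7.68 in the WT-labelled arrays and 7.49, 7.48, 7.15 and 7.46 in the KO-labelled arrays. The groups did not overlap, but WT replicate 4 came within 0.19 of the highest KO-labelled array. Of all tested genes, 7.66% were lower with no overlap. The difference was -0.99 ± 0.249 (SE; limma adjusted p = 0.0861, exact permutation p = 0.0286), and the adjusted p ran from 0.0322 without WT replicate 4 to 0.249 without WT replicate 2, with 0.0527 without KO replicate 1. Ccl4, a chemokine released by activated T cells, read 8.26, 8.42, 8.63 and 8.20 in the WT-labelled and 8.62, 8.49, 8.55 and 8.87 in the KO-labelled arrays (limma adjusted p = 0.264).

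**Figure D4:**
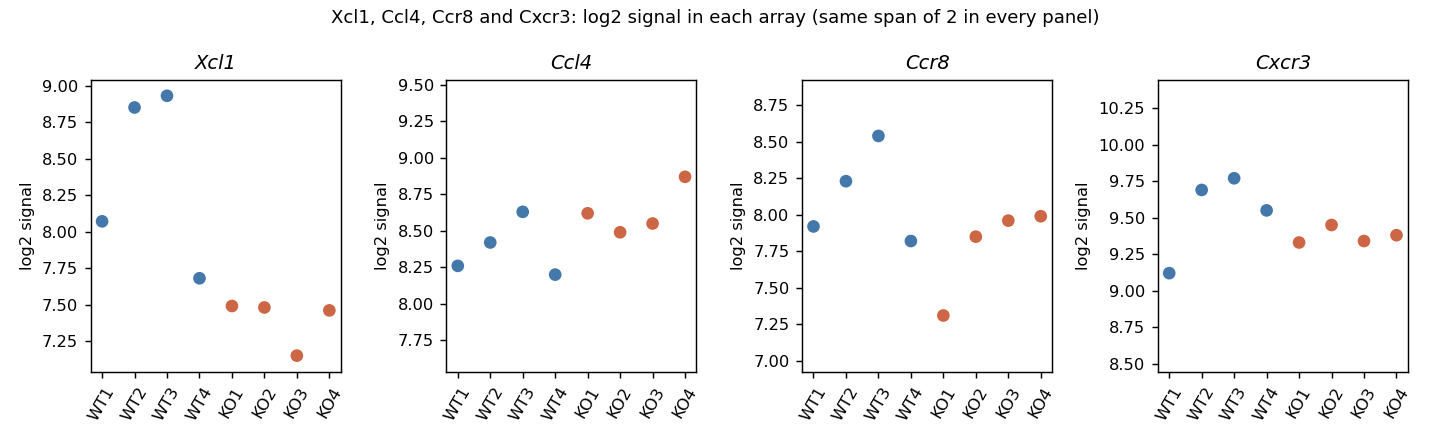
Log2 signal of Xcl1, Ccl4, Ccr8 and Cxcr3 in each array (blue, WT-labelled; orange, KO-labelled), over the same span in each panel. WT replicates 2 and 3 have the highest values of the WT group in all 4 genes.

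A feature chosen after the values were seen is that WT replicates 2 and 3 were the highest of the WT group in Ccr8, Cxcr3, Cxcr4, Xcl1 and Ccl4 alike. They were so in Ccr7, Ccr9 and Ccl3 as well, but were the lowest of the group in Ccr4 and held neither place in Ccr6, Cxcr6 and Gpr183. The share of all genes with this order was not counted. The summed signal of 12 CD8 and NK cell markers was also highest in WT replicates 2 and 3, at 13.26 and 13.39 on the log2 scale, against 12.76 and 12.78 in WT replicates 1 and 4. The largest contributor to that sum was Gzmb, granzyme B, which activated CD4 T cells can also express, at 11.45, 12.06, 12.35 and 11.60 in WT replicates 1 to 4. Over groups the sum ran from 12.76 to 13.39 in the WT-labelled and from 12.76 to 13.20 in the KO-labelled arrays. Of the 7 tested markers of this list none was called, and 4 (Prf1, Ctsw, Crtam and Nkg7) were lower with no overlap, where 7.66% of all tested genes were. The other 3 overlapped: Gzmb differed by 0.35, and Cd8a and Cd8b1, the genes of the CD8 chains, by -0.04 and 0.03. Gzma, Klrk1, Klrb1c, Ncr1 and Klrd1 lay under the filter in every array. Regulatory T cells also carry Ccr4 and Ccr8. Of 7 tested markers of theirs, Gpr83 was called lower (limma adjusted p = 0.00333), as were 0.671% of all tested genes. Foxp3, Ikzf2, Gpr83 and Lrrc32 were lower with no overlap, where 7.66% of all tested genes were. Il2ra was higher with no overlap (a difference of 0.11, uncalled), as were 3.10% of all tested genes. Ctla4 and Tnfrsf18 overlapped, with differences of 0.11 and -0.05, and Itgae lay under the filter. The summed signal of the 8 markers, to which Il2ra contributed the most, ran from 14.13 to 14.17 in the WT-labelled and from 14.11 to 14.17 in the KO-labelled arrays. The part of either cell type in the receptor values was not tested.

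Downstream of the receptors, 32 of 34 signalling genes on the array were tested and none was called, with 12 of 32 at an unadjusted limma p under 0.05 (16.6% of all genes) and a median difference of -0.03. Gnai2, the main inhibitory G protein subunit of chemokine receptors, differed by -0.02 ± 0.0423 (SE, limma adjusted p = 0.869). Gnaq, the subunit of the Gq class, had the smallest p: it read 8.67, 8.52, 8.65 and 8.80 in the WT-labelled and 8.88, 9.06, 8.95 and 9.09 in the KO-labelled arrays, a difference of 0.34 ± 0.0701 (SE, limma adjusted p = 0.0524). Grk6, a kinase that silences chemokine receptors, was lower in every KO-labelled array, at 10.89, 10.98, 10.93 and 10.98 against 10.69, 10.75, 10.79 and 10.79 (a difference of -0.19 ± 0.0458, limma adjusted p = 0.0782).

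Without KO replicate 1, 6 of the 32 signalling genes passed, against 6.56% of all genes in that fit. Gnaq, Gna13, Rgs1 and Rgs2 were higher, by 0.37, 0.19, 0.48 and 0.52 on the log2 scale (limma adjusted p = 0.0147, 0.0269, 0.0285 and 0.0304). Rgs1 and Rgs2 speed the shut-off of G protein signals, and Gna13 carries the signal that confines cells to the germinal centre. Grk6 and Tln1, the talin that links integrins to actin, were lower, by -0.17 and -0.16 (limma adjusted p = 0.048 and 0.0458). Grk6 passed although its difference shrank from -0.19 and its unadjusted limma p rose from 0.00205 to 0.00291. That of Tln1 fell from 0.00365 to 0.00267. The number of arrays limits the precision of all these values.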

How the data were processed

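Expression was measured on Affymetrix whole-transcript arrays, 4 per genotype. The authors deposited 1 log2 value per probe set and array, made with RMA and Partek software per the submitters' processing notes; versions and order of steps are not given in the sources used here. RMA ordinarily equalizes the distributions of arrays, which hides any shift of the whole transcriptome. The median of the 35556 probe sets lay between 7.35 and 7.42 in every array. Groups came from the sample titles. Probe sets with 1 symbol in the platform annotation numbered 21789, and 21698 of these matched the RefSeq mouse table by Entrez identifier; the probe set with the highest mean stood for a gene. Genes above the 40th percentile of those probe sets in at least 4 arrays were tested: 11926 of 19938. The genotypes were compared by two-sided moderated tests (lmFit, then eBayes) without a block, using limma 3.58.1 under R 4.3.3, adjusted by the Benjamini-Hochberg method over all tested genes, with a threshold of 0.05; single genes also had an exact two-sided permutation test. Each difference is the KO mean less the WT mean, in log2 units. The members and gene lists were chosen with earlier results of these data known. Of 118 listed genes, 111 had a probe set. Genes named by rule were the 9 members, Bcl6, the genes of each of the 5 other lists (the marker lists apart) past the threshold or else those with the 2 smallest p, ligands and partners of members, and the 3 genes most like the member with the smallest p and the member with the widest range. Cell type markers were to be given as counts, sums and names of those under the filter. Every other gene or marker named was chosen after its values were seen, including the single markers with a difference and the genes called only under an alternative. The steps were tested on simulated data of 11926 genes, which recovered 86.0% of the genes given a log2 change of 0.5 and 99.6% of those given 1, and 5.35% of calls were false. No smaller change was simulated, while the largest difference of a tested receptor was -0.35. The simulated noise was independent between genes, with the same spread on every array and no outlying array. These shares therefore do not give the power or error rate for the receptors. Alternatives were another normalization, other filters, variance models, array weights, the mean over probe sets, a replicate block and arrays left out.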

Additional observations from a re-analysis of the deposited data

Results flagged for a closer look

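In 38 groups of 4 values, for the 9 receptors, Bcl6 and the list genes with the smallest p, 3 had 1 array far from the other 3, by Dixon's test at the 95% level; chance alone gives about 1.9. None of the 3 was in a receptor of the main set. Xcl1 was low in KO replicate 3, at 7.15 against 7.46 to 7.49 in the other KO-labelled arrays. S1pr1 was low in WT replicate 1, at 9.79 against 10.27 to 10.35. Ptger4 was high in WT replicate 2, at 10.29 against 10.19 to 10.20.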

How the results depend on the processing

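The sign of the difference held for Ccr4, Ccr7, Ccr8, Cxcr3 and Gpr183 in all 18 alternatives and for Cxcr4 in the 17 that could test it, since the filter at the 50th percentile removed it. Only the normalizations, array weights and arrays left out could have changed a sign, since the other settings leave the difference of these receptors as it was. For Ccr4 and Ccr7, whose groups do not overlap, weights and arrays left out could not change it either. Ccr7, Ccr8, Cxcr3 and Gpr183 were called in none. The count of receptors called, 0 over the 8 arrays as deposited, was 1 (Ccr4) with a second quantile normalization, with an intensity trend and robust prior, without KO replicate 1 and WT replicate 3 together and at a threshold of 0.1, and 2 (Ccr4 and Cxcr4) with array weights; it ran from 0 to 2 when 1 array was left out, with 2 without KO replicate 1. The other chemokine receptors, 0 as deposited, gave 1 with no filter (Ccr2) and 1 with array weights (Ackr2). The ligands gave 1 (Xcl1) with the trend, with array weights, at 0.1 and without WT replicate 4, a range of 0 to 1 over the arrays left out. The signalling genes gave 2 with quantile normalization, 1 with the filter at the 50th percentile, 3 with the trend, 10 with array weights, 1 without KO replicate 1 and WT replicate 3 together and 4 at 0.1, and 0 to 6 when 1 array was left out. The other migration receptors gave 1 (S1pr1) with array weights, and 0 to 1 with 1 array left out. Over all genes the 157 calls became 322 with quantile normalization, 78 with median centring, 58 with no filter, 354 with the trend, 1980 with array weights, 36 with the replicate block, 443 without KO replicate 1 and WT replicate 3 together and 468 at 0.1, and ran from 31 without WT replicate 2 to 782 without KO replicate 1. The array weights ran from 0.176 for KO replicate 1 to 3.32 for WT replicate 2. The cause of these shifts was not tested. The replicate number is no pairing that the labels give: the deviations of same-numbered arrays correlated over 0.1 in 2 of 4 pairs, and 4 of 8 arrays correlated best with their own number in the other group. With it as a block, Ccr4 had an adjusted p of 0.118 and no receptor was called.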
